A study of Mus musculus with 2 samples.

Results

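The ribosomal protein genes encode the protein components of the cytosolic ribosome. They were taken from the GENCODE mouse annotation by symbol alone: protein-coding genes named Rpl or Rps followed by a digit, Rplp0 to Rplp2 and Rpsa, without the Rps6k kinase genes and without symbols containing -ps. The rule gave 86 of 21938 protein-coding genes and used no measured value. Of these, 43 encode proteins of the large subunit, 31 proteins of the small subunit and 3 the acidic stalk of the large subunit, and these 77 are called core genes here. Another 8 are paralogs or retrogenes of core genes (Rpl3l, Rpl7l1, Rpl10l, Rpl22l1, Rpl36al, Rpl39l, Rps27l and Rps27rt). The last, Rps19bp1, was taken by its symbol but encodes a binding partner of Rps19 and not a ribosomal protein. Fau, whose ribosomal protein is made as a fusion with a ubiquitin-like protein, falls outside the symbol rule.

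DNase-seq, which releases and sequences DNA that DNase I can reach, was carried out on cortex tissue from the left cerebral hemisphere. The mice were females of the strain B6CASTF1/J, the F1 cross of C57BL/6J with CAST/EiJ, and were 14 days old. The data are 2 libraries, biological replicates 1 and 2, which the labels assign to separately numbered animals under a single donor record. No treatment or genotype was compared, so a single group exists, nothing could be tested between groups and no p-value is given. Values after ± are the SD over n = 2.

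A growing cell spends much of its transcription on ribosomes, and most ribosomal proteins are needed in equal amounts. Their promoters are typically CpG rich, often carry no canonical TATA box and start transcription inside a run of C and T. Such a run makes the 5′ end of the mRNA a terminal oligopyrimidine tract, through which mTOR signalling controls the translation of these mRNAs. In neurons, local translation in axons and dendrites depends on ribosomes made from these genes.

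A DHS (DNase I hypersensitive site) here means a peak of accessible DNA called by the authors in 1 library, and its signal is the deposited peak height, whose unit is not stated. A promoter DHS is a peak that overlaps the 1 kb on either side of any annotated transcription start site of the gene, and the promoter signal is that of the highest such peak. A footprint is a short stretch, usually inside a DHS, that the authors called as protected from DNase I. Replicate 1 held 90059 peaks and 199455 footprints, and replicate 2 held 175597 peaks and 416840 footprints. Read depth is unknown, but all peak heights were whole multiples (within 0.02 of a step) of a smallest step that was 1.55 times larger in replicate 1, and the median promoter DHS of the ribosomal protein genes stood 632 steps high in replicate 1 and 818 in replicate 2. The tissue label was checked against markers: both libraries showed a promoter DHS at 10 of 10 cortical neuron genes, 4 of 5 astrocyte genes, 3 of 5 interneuron genes, 3 of 5 oligodendrocyte lineage genes, 2 of 5 microglia genes and 1 of 6 genes of hindbrain and other tissues. The share over all protein-coding genes was 62.7%. The interneuron and oligodendrocyte lineage shares (60% each) were near it and the microglia share (40%) was below it. Counts this small do not show which of these cell types were present. The microglia marker Tmem119 had a promoter DHS in neither library. In a bulk tissue, fewer accessible cells and less accessibility per cell cannot be told apart.

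The promoter sequences below are shown because they carry the main patterns described further on. Each is 250 bases of RefSeq promoter (GRCm38.p6, read 5′ to 3′ on the gene's strand), the last 30 of which begin at the RefSeq start site. Capitals mark bases that lay inside a footprint of both libraries. The RefSeq promoter table held 66 of the 86 genes. Rplp0 (chr5:115559247-115559496, plus strand) had the highest promoter signal of all 86. Rpl7a (chr2:26910587-26910836, plus strand) and Rpl26 (chr11:68901346-68901595, plus strand) carry the letters CTCGCGA inside footprints. Rpl18 (chr7:45717851-45718100, plus strand) carries TGACGTC and Rps3a1 (chr3:86142639-86142888, minus strand) carries CCGGAAG inside footprints. Rps4x (chrX:102189362-102189611, minus strand) had the lowest signal among the core genes, and Rpl39l (chr16:10170008-10170257, plus strand) had no promoter DHS.
Rplp0: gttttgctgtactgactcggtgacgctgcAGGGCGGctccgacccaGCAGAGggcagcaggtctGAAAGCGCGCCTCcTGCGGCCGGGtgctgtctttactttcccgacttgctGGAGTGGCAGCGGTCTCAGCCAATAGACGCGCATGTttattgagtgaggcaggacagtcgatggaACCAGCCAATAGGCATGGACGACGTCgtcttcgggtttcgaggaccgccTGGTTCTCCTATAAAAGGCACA
Rpl7a: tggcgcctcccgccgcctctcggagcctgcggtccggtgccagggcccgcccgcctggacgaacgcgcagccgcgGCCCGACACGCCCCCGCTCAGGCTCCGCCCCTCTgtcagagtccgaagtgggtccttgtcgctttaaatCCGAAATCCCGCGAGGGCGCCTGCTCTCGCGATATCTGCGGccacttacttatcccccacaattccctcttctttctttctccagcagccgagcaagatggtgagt
Rpl26: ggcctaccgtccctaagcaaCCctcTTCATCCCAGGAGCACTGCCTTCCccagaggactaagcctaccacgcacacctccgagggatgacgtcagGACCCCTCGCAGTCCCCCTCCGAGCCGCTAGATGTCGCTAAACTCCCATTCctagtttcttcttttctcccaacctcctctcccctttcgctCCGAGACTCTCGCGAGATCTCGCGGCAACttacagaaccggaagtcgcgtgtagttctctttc
Rpl18: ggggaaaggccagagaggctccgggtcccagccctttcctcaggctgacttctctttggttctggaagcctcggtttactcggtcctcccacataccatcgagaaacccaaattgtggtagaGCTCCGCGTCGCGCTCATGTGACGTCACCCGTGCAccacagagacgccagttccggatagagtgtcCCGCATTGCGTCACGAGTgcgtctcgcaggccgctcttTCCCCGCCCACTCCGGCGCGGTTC
Rps3a1: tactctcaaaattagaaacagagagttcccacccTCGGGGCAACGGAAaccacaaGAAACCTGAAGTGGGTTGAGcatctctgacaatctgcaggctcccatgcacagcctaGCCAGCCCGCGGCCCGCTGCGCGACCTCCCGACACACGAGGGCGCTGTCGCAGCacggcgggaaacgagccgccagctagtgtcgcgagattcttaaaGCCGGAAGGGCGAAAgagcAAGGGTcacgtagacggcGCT
Rps4x: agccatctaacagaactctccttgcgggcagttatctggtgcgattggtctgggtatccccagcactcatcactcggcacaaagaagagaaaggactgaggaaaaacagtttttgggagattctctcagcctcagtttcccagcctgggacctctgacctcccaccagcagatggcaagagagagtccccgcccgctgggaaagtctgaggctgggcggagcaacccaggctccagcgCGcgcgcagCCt
Rpl39l: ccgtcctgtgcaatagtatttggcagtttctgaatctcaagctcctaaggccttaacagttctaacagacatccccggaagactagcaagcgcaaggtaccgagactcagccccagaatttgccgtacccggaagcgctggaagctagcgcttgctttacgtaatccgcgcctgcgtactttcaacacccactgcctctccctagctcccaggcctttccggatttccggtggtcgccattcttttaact

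In these windows the bases inside footprints of both libraries numbered 120 of 250 for Rplp0, 112 for Rps3a1, 106 for Rpl26, 77 for Rpl18, 75 for Rpl7a, 4 for Rps4x and 0 for Rpl39l. The capitals fall in separate blocks rather than along the whole window. GENCODE and RefSeq placed the start at the same base for 16 of the 66 genes, so positions given below refer to the start of the GENCODE principal transcript, called the principal start.

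Nearly every ribosomal protein promoter was accessible. Both libraries had a promoter DHS at 83 of the 86 genes (96.5%), against 62.7% of all protein-coding genes. The same 83 were the count in each library alone, where the background was 63.6% in replicate 1 and 67.8% in replicate 2. All 77 core genes were among them, as were 5 of the 8 paralogs and Rps19bp1. With the authors' smaller, stricter peak lists 82 genes remained, against 57.2% of all protein-coding genes, and the gene lost was Rps27rt. At least 1 footprint lay in the promoter window in both libraries for 83 genes, against 60.8% of all protein-coding genes.

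The 3 genes without a promoter DHS in either library were the paralogs Rpl10l, Rpl39l and Rpl3l. Rpl10l and Rpl39l are known as testis-expressed copies of the X-linked genes Rpl10 and Rpl39, and Rpl3l is known as a paralog of Rpl3 expressed in striated muscle. None of them had a footprint in its promoter window. The parent genes were accessible in the same libraries: Rpl3 had signals of 6.93 in replicate 1 and 7.54 in replicate 2, Rpl10 of 2.93 and 3.55, and Rpl39 of 1.46 and 1.42.

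Promoter signal was also high among accessible promoters. The median over the 83 genes was 4.39 (quartiles 2.96 to 5.78), against 2.33 (1.21 to 3.98) over the 13757 protein-coding genes with a promoter DHS in both libraries. In replicate 1 the medians were 4.87 and 2.52, and in replicate 2 they were 4.07 and 2.13. Of the 83 genes, 72 lay above the middle of the ranking of all protein-coding promoters and 22 (26.5%) in its highest 10%. The range was nonetheless wide, from 0.585 for Rps27rt to 9.27 for Rplp0, while the highest protein-coding promoter reached 19.7. The 2 subunits had medians close to each other, 4.39 for the large and 4.66 for the small.

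**Figure D1:**
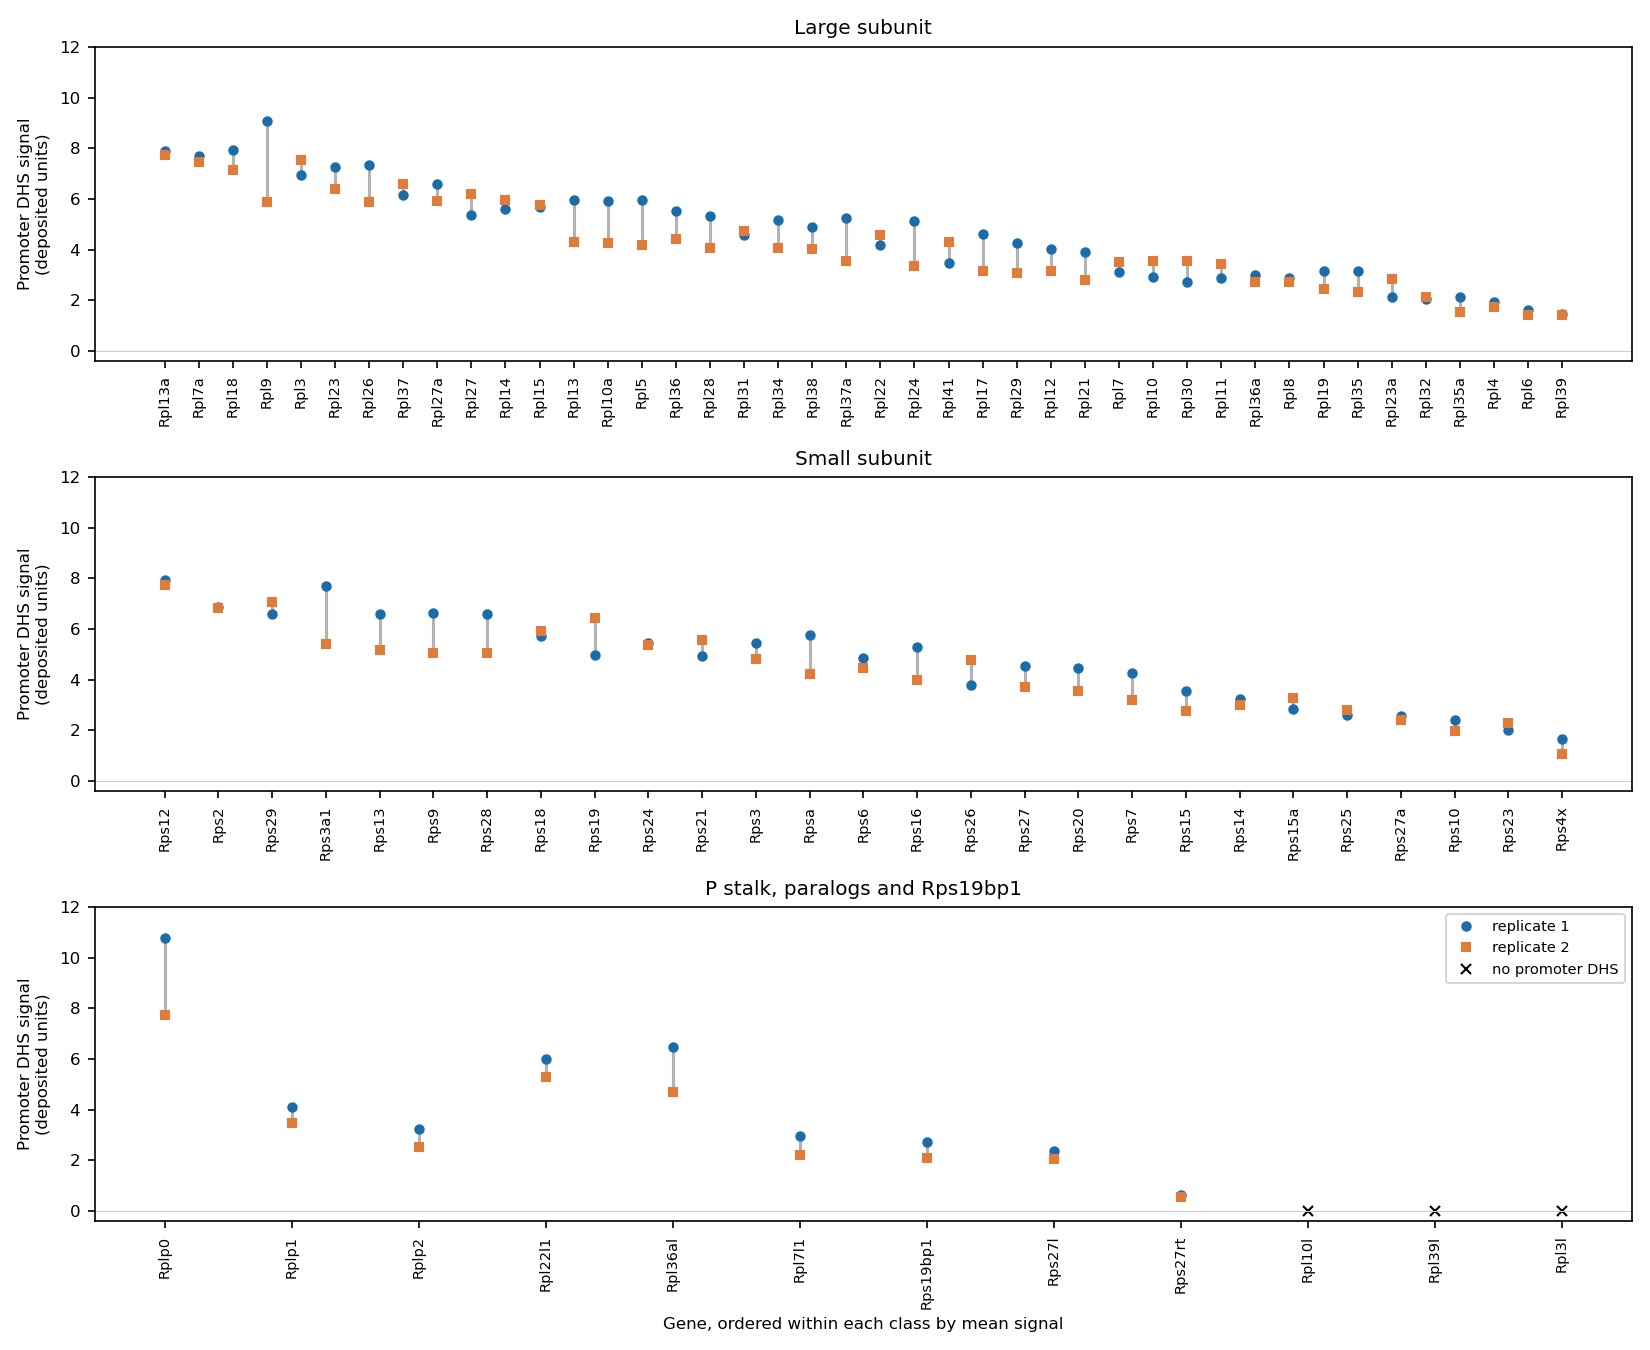
Promoter DHS signal (vertical axis, deposited units) of the ribosomal protein genes shown, with circles for replicate 1, squares for replicate 2, a bar joining both and crosses for genes without a promoter DHS. Rplp0 stands highest with 10.8 and 7.75, the core genes span from there down to Rps4x with 1.65 and 1.05, and Rpl10l, Rpl39l and Rpl3l have no value.

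In the stalk, which recruits the translation factors that hydrolyse GTP, the scaffold gene Rplp0 differed from its partners. Its promoter signal was 10.8 in replicate 1 and 7.75 in replicate 2 (9.27 ± 2.15), at a DHS on chromosome 5 from 115559281 to 115559500 in replicate 1 and to 115559520 in replicate 2. Rplp1 had 4.10 and 3.47 (3.78 ± 0.446), and Rplp2 had 3.22 and 2.54 (2.88 ± 0.483). Both libraries placed Rplp0 above the other stalk genes without overlap, although the 3 proteins form a single complex. Rplp0 also showed the widest spread between the libraries of these 3.

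Among the large subunit genes the highest promoter signals belonged to Rpl13a, Rpl7a, Rpl18 and Rpl9. Rpl13a, whose protein is also known for silencing inflammatory mRNAs outside the ribosome, had 7.88 and 7.74 (7.81 ± 0.0991). Rpl7a had 7.68 and 7.45 (7.56 ± 0.158), and Rpl18 had 7.95 and 7.13 (7.54 ± 0.578). Rpl9 had 9.07 and 5.88 (7.48 ± 2.26), so its place among these 4 rests on replicate 1. At the other end stood Rpl39, which lies at the exit tunnel, with 1.46 and 1.42 (1.44 ± 0.0232), and Rpl6 with 1.62 and 1.40 (1.51 ± 0.155). Rpl4, which lines the exit tunnel, had 1.93 and 1.71 (1.82 ± 0.151), and Rpl35a had 2.11 and 1.53 (1.82 ± 0.409). The 4 highest and 4 lowest large subunit genes were chosen by the mean of these same signals, so the gap between the sets is no separate result. Neighbours within each set of 4 differed by less than the spread between libraries in several cases, such as Rpl7a and Rpl18 or Rpl4 and Rpl35a.

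Among the small subunit genes Rps12 had one of the highest signals, with 7.94 and 7.73 (7.83 ± 0.146). Rps2, at the mRNA entry, had 6.87 and 6.84 (6.85 ± 0.0223), and the zinc-binding Rps29 had 6.60 and 7.04 (6.82 ± 0.316). Rps2 and Rps29 could not be ordered, because each was above the other in 1 library. The lowest was Rps4x with 1.65 and 1.05 (1.35 ± 0.427). Rps23, of the decoding centre, had 2.02 and 2.30 (2.16 ± 0.195). Rps10 had 2.41 and 1.96 (2.19 ± 0.319), at a DHS whose centre lay 1378 bp downstream of its principal start in replicate 1, and when the principal start alone was used it had no promoter DHS in replicate 1 and a signal of 0.961 in replicate 2.

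The accessible paralogs split into high and low promoters. Rpl22l1, a paralog of Rpl22, had 5.98 and 5.27 (5.63 ± 0.501), above Rpl22 itself with 4.16 and 4.57. Rpl36al, a paralog of the X-linked Rpl36a, had 6.48 and 4.70 (5.59 ± 1.26), where Rpl36a had 3.01 and 2.71. The Rpl36al start faces that of Mgat2, a glycosyltransferase gene, at a distance of 74 bp, and the share of the DHS that belongs to each gene cannot be told apart. Rpl7l1 had 2.96 and 2.21 (2.58 ± 0.533), and the p53-inducible Rps27l had 2.35 and 2.04 (2.19 ± 0.222). The retrogene Rps27rt, a copy of Rps27, had 0.617 and 0.553 (0.585 ± 0.0452), at a DHS centred 437 bp upstream of its start in replicate 1. The DHS lay outside the annotated gene in both libraries. The gene, on the minus strand, starts at base 114982739, and the DHS began at 114983114 in replicate 1 and 114983068 in replicate 2. Sharing of reads with Rps27 was not tested. Rps19bp1 had 2.71 and 2.08 (2.39 ± 0.441), near the median of all protein-coding promoters.

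Of the 83 accessible genes, 4 lie on the X chromosome, of which female mice carry a pair with 1 copy largely inactive per cell. Their mean signals were 3.24 for Rpl10, 2.86 for Rpl36a, 1.44 for Rpl39 and 1.35 for Rps4x, with a median of 2.15, against 4.62 over the 79 autosomal genes. Each of the 4 lay below the autosomal median in both libraries. With 4 genes this is a description, and it was not separated from differences in CpG content. X-linked and autosomal promoters were not compared over all protein-coding genes, so the difference has no background beside it. The observed over expected CpG ratio within 500 bp of the start was 0.750 for Rpl10, 0.741 for Rpl36a, 0.607 for Rpl39 and 0.507 for Rps4x. The median over the 83 genes was 0.814.

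The libraries ranked these promoters alike. Across the 83 genes, which share each library's depth and are not independent replicates, Pearson's correlation between replicates was 0.929 on log2 signals and Spearman's was 0.906, against 0.955 and 0.959 across 13674 other protein-coding genes, which cover a wider range. Replicate 2 was higher for 24 of the 83 genes (28.9%), against 29.2% of all protein-coding promoters, so the share was near the background. No ribosomal protein gene differed by more than 2-fold between libraries, against 1.35% of all protein-coding promoters. The largest ratios of replicate 2 to replicate 1 were 1.34 for Rpl23a, 1.31 for Rpl30 and 1.29 for Rps19, and among the smallest were 0.634 for Rps4x and 0.648 for Rpl9. The SD of the log2 ratio was 0.28 over the 83 genes and 0.36 over all protein-coding promoters. It was 0.29 over 3984 other genes whose signal lay between the quartiles of the ribosomal protein genes, 17 of which differed by more than 2-fold.

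**Figure D2:**
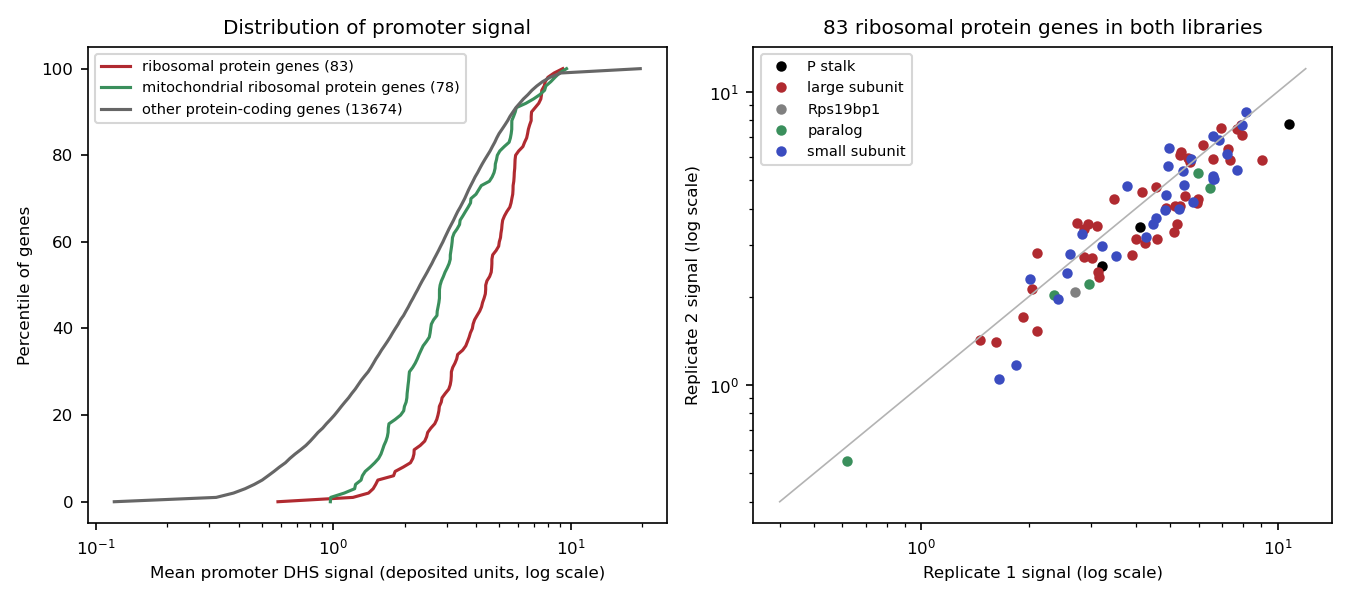
Left, percentiles of mean promoter signal (log axis, deposited units) for 83 ribosomal protein genes, 78 mitochondrial ribosomal protein genes and 13674 other protein-coding genes, with medians of 4.39 and 2.82 for the first and second set. Right, signal of each of the 83 genes in replicate 1 and replicate 2 (log axes, deposited units), coloured by class, around a line of equal values; most points lie below the line and all lie within 2-fold of it.

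Related gene groups served as points of comparison. The mitochondrial ribosomal protein genes, which make the separate ribosome of mitochondria, were accessible in 78 of 78 cases, with a median signal of 2.82 (quartiles 2.05 to 4.67). Translation elongation and other genes with a terminal oligopyrimidine mRNA were accessible in 20 of 20 cases, with a median of 5.45 and quartiles of 3.49 to 5.93 that overlapped those of the ribosomal protein genes. By mean signal they ranged from Vim with 0.763 and 0.413 to Npm1 with 8.11 and 6.93. Fau, outside the symbol rule, had 7.51 and 5.69, inside the range of the core genes. Rack1, a signalling scaffold bound to the small subunit, had 2.35 and 1.94. All genes of the mitochondrial and terminal oligopyrimidine lists were thus accessible, and the quartiles of both lists overlapped those of the ribosomal protein genes.

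Few annotated pseudogenes of ribosomal proteins had a DHS near their start. Processed pseudogenes arise by reverse transcription of mRNA without its promoter, and the set was not restricted to that kind. Of 301 annotated ribosomal protein pseudogenes, 12 (3.99%) had a DHS in the same kind of window in both libraries, and in 5 (1.66%) a DHS touched the pseudogene itself. Without those whose window held the start of a protein-coding gene, 11 of 293 (3.75%) had a DHS. The same share over other pseudogenes or over arbitrary windows was not calculated, so these values have no such background beside them. The highest were Rpl38-ps1 with 4.08 and 3.08 and Rpl29-ps2 with 2.89 and 3.26, the second with the start of Akr1e1 in its window. Rpl34-ps1 had 2.44 and 1.41, and Rpl37rt had 1.03 and 1.90. How the authors treated reads that fit several near-identical copies is not given in the sources used here, so the pseudogene values are uncertain.

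The promoter DHSs were compact and sat at the start site. In replicate 1 their median width was 240 bp and in replicate 2 it was 220 bp, beside 220 bp in both libraries for other protein-coding promoters. The centre lay a median of 26.5 bp upstream of the principal start in replicate 1 and 35.5 bp upstream in replicate 2, and the principal start lay inside the DHS for 68 of the 83 genes in each library. The segments that the authors listed with a false discovery rate of the DNase cleavage rate of at most 0.05 were longer. Within 1 kb of the principal start they covered a median of 843 bp in replicate 1 and 937 bp in replicate 2, against 722 and 856.5 bp for other accessible protein-coding genes and 686 and 804.5 bp for mitochondrial ribosomal protein genes. Coverage extended further downstream, with medians of 455 and 544 bp, than upstream, with 349 and 409 bp. The same order held for other accessible genes, with 367.5 and 432 bp downstream and 301 and 372 bp upstream, and for mitochondrial ribosomal protein genes, with 363.5 and 415.5 bp against 264.5 and 343 bp. The principal start was inside such a segment for 80 of 83 genes (96.4%) in each library, the exceptions being Rpl35, Rps10 and Rps27rt, against 79.9% and 82.1% of other accessible genes and 78 of 78 mitochondrial ribosomal protein genes in both libraries.

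Footprints were most frequent in the 100 bases before the start. Between 50 bases upstream and the start, a base lay in a footprint in an average of 30.2% of the ribosomal protein genes in replicate 1 and 34.1% in replicate 2, against 20.4% and 25.8% of other accessible genes. From 100 to 51 bases upstream the averages were 28.1% and 35.5%, against 18.4% and 23.9%. Over the first 50 transcribed bases they were 25.8% and 29.4%, against 14.8% and 18.9%. From 51 to 150 bases downstream they were 12.1% and 15.4%, against 6.44% and 9.14%, and between 100 and 200 bases upstream 15.9% and 21.8%, against 11.5% and 15.7%. Between 150 and 300 bases downstream they were 2.80% and 4.21%, beside 2.53% and 3.79%, and between 200 and 300 bases upstream 4.42% and 6.88%, beside 4.96% and 7.43%. The averages of the ribosomal protein genes were thus higher from 200 bases upstream to 150 bases downstream in both libraries. Promoter signal was also higher for the ribosomal protein genes. Their principal start lay inside a segment with a false discovery rate of at most 0.05 for 96.4% in each library. For other accessible genes the shares were 79.9% and 82.1%. The part of either difference in the profile was not tested.

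**Figure D3:**
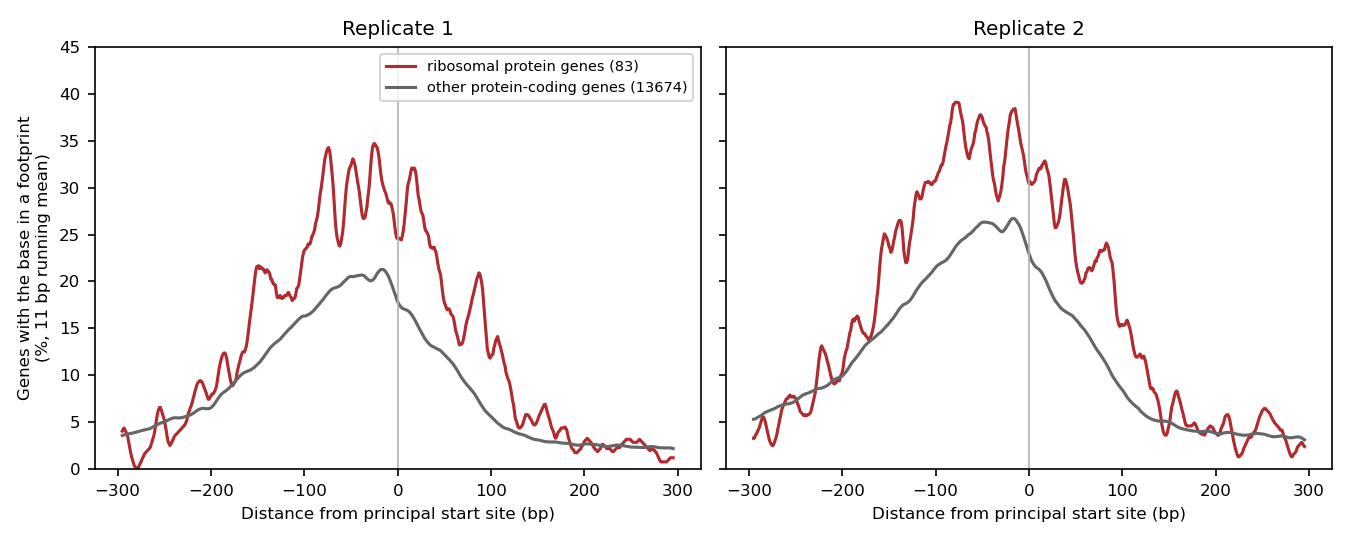
Share of genes (vertical axis, %, running mean over 11 bp) in which a base lay inside a footprint, by distance from the principal start (bp), for 83 ribosomal protein genes and 13674 other accessible protein-coding genes in each library. The ribosomal protein genes peak at 34.7% in replicate 1 and 39.1% in replicate 2, above the highest values of other genes, 21.3% and 26.7%.

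Counts of footprints per promoter window were close to those of other genes. The median was 7 in replicate 1 and 9 in replicate 2, beside 6 and 8 for all accessible protein-coding genes. It was 7 and 9 for 3984 other genes whose signal lay between the quartiles of the ribosomal protein genes. The windows of these sets were longer, with medians of 4265 and 4522.5 bp, against 3228 bp for the ribosomal protein genes. Around the principal start alone, the median of the mean count of both libraries was 7.5, against 6.5 for all accessible protein-coding genes. The most footprints lay at Rps19, a gene mutated in Diamond-Blackfan anaemia, with 13 and 19. Rpl3, next to the peptidyl transferase centre, had 13 and 13 over the combined windows of its 7 start sites (6826 bp, where the median was 3228 bp), but 8 and 7 around the principal start alone. Rpl4 had 11 and 14, and Rpl7 had 8 and 17, and the counts of Rps19, Rpl4 and Rpl7 were the same around the principal start alone. The Rpl4 window thus combined one of the lowest promoter signals with many footprints. It also holds the start of Zwilch, so neither value can be assigned to Rpl4 alone. Of the footprints in these windows, 71.3% of those in replicate 1 and 54.5% of those in replicate 2 overlapped a footprint of the other library by at least 1 bp, against 67.8% and 46.2% over all protein-coding promoters, 75.1% and 53.6% over the genes of similar signal and 75.6% and 59.1% over mitochondrial ribosomal protein promoters.

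Start sites of the ribosomal protein genes often lay in or near a run of C and T. 4 of the longest runs are shown in the 20 bases on either side of the principal start, which is base 21 of each line, with the longest unbroken run of C and T in capitals. The lines are GRCm38.p6 sequence on the gene's strand: Rpl34 (chr3:130730317-130730357, minus strand), Rps2 (chr17:24720090-24720130, plus strand), Rps24 (chr14:24490698-24490738, plus strand) and Rpl29 (chr9:106429519-106429559, plus strand).
Rpl34: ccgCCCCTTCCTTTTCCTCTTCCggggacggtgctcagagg
Rps2: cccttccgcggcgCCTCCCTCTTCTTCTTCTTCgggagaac
Rps24: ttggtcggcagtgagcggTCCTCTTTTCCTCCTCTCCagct
Rpl29: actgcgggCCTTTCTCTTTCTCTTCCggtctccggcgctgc

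The runs were 20 bases long in Rpl34 and Rps2, 19 in Rps24 and 18 in Rpl29, and each contained the principal start. A run of at least 8 C or T within 20 bp of the principal start was present in 34 of the 83 accessible genes (41.0%), against 15.7% of all protein-coding genes and 14.9% of other accessible ones. Of mitochondrial ribosomal protein genes 14.1% had one, and of the other terminal oligopyrimidine genes 9 of 20 (45%). The longest such run held the start base itself in 15 of the 34 genes, 18.1% of the 83. This share was 3.64% for other accessible genes and 3.85% for mitochondrial ribosomal protein genes. In the other 19 genes the run lay elsewhere within 20 bp of the start. In Rpl22 it covered bases 1 to 15 after the start, and in Rpl11 bases 13 to 20. The first transcribed base was C in 26 genes (31.3%), against 16.5% of all protein-coding genes. The start base itself lay inside a footprint in 21 genes (25.3%) in replicate 1 and 25 (30.1%) in replicate 2, against 17.7% and 22.7% of other accessible genes and 26.9% and 37.2% of mitochondrial ribosomal protein genes. Annotated starts can lie several bases from the true start, so exact positions are those of the annotation. Fewer of the other accessible genes had that start inside an accessible segment, which the footprint shares do not allow for.

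Short recognition sequences were searched on both strands from 150 bp before to 50 bp after the principal start, and a match describes letters and not binding. CTCGCGA, the core of the element bound in vitro by the zinc finger protein ZBTB33, had the largest ratio of shares among the 9 sequences searched. It was present in 14 of the 83 genes (16.9%), against 2.06% of all protein-coding promoters, 2.98% of other accessible ones and 3.85% of mitochondrial ribosomal protein promoters. The letters and their reverse complement overlap in the palindrome that several promoters hold, as in the Rpl26 line above. The carriers included Rpl7a, Rpl10a, Rpl17, Rpl23a, Rpl26, Rpl27a, Rps3a1, Rps6, Rps9, Rps15, Rps19 and Rps28. A match lay wholly inside a footprint in both libraries in 6 carriers (42.9%), among them Rpl7a, Rpl17, Rpl23a, Rpl26 and Rps19, against 16.0% of other accessible carriers.

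The ETS letters CCGGAAG, recognised by GABP and its relatives, were present in 26 genes (31.3%), against 9.74% of all protein-coding promoters and 14.1% of other accessible ones. The mitochondrial ribosomal protein promoters held them as often, in 28 of 78 (35.9%). In 4 ribosomal protein genes, Rpl27a, Rpl30, Rps3a1 and Rps21, a match lay inside footprints of both libraries, 15.4% of the carriers against 12.5% of other accessible carriers. The YY1 letters AAGATGG were present in 9 genes (10.8%), against 4.74% of all promoters and 5.25% of other accessible ones, and 14.1% of the mitochondrial set held them. In Rpl7l1, Rpl13a, Rpl23a, Rpl30, Rpl35a, Rpl37 and Rps15 the match began 17 to 44 bases after the principal start. Only in Rps16 and Rps27 did it lie before the start. These letters include ATG, the start codon, so matches after the start need not be promoter elements.

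TATAAA, the TATA box letters, were present in 9 genes (10.8%), against 8.87% of all protein-coding promoters and 4.58% of other accessible ones. A match lay inside footprints of both libraries in 3 of them, Rplp0, Rps2 and Rps28, 33.3% of the carriers against 3.99% of other accessible carriers. In Rplp0 the match began 17 bases after the annotated start, in Rps28 37 bases after it and in Rps2 30 bases before it. The first 2 therefore lay downstream of the start in the annotation used. TGACGTC, the cAMP response element, was present in 7 genes (8.43%), against 3.55% of all promoters and 4.80% of other accessible ones, and lay inside footprints of both libraries in 5, Rpl13, Rpl18, Rpl27a, Rps9 and Rps29, 71.4% of the carriers against 47.0% of other accessible carriers.

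GGGCGG, bound by the SP and KLF families, was present in 40 genes (48.2%). This share lay between those of all protein-coding promoters (41.8%) and other accessible ones (57.4%), and the mitochondrial set had 46.2%. The letters lay inside footprints of both libraries in 21 of the 40 (52.5%, against 41.0%). CGCATGC of NRF1 was present in 7 genes (8.43%), against 3.55% of all promoters, 5.01% of other accessible ones and 10.3% of the mitochondrial set. It lay inside footprints of both libraries in 2 of the 7 (28.6%), against 44.7% of other accessible carriers. The E-box CACGTG was present in 6 (7.23%), against 5.94%, and CCAAT of NF-Y in 21 (25.3%), against 29.8%, both near their backgrounds. Differences in base composition were small for GC content, with medians within 500 bp of the start of 57.3% and 58.8% for ribosomal protein and other accessible genes. They were larger for the CpG ratio, at 0.814 and 0.717, and the part of CpG content in the motif shares was not tested. Fewer of the other accessible genes had the principal start inside an accessible segment, and its part in the footprinted shares was not tested.

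**Figure D4:**
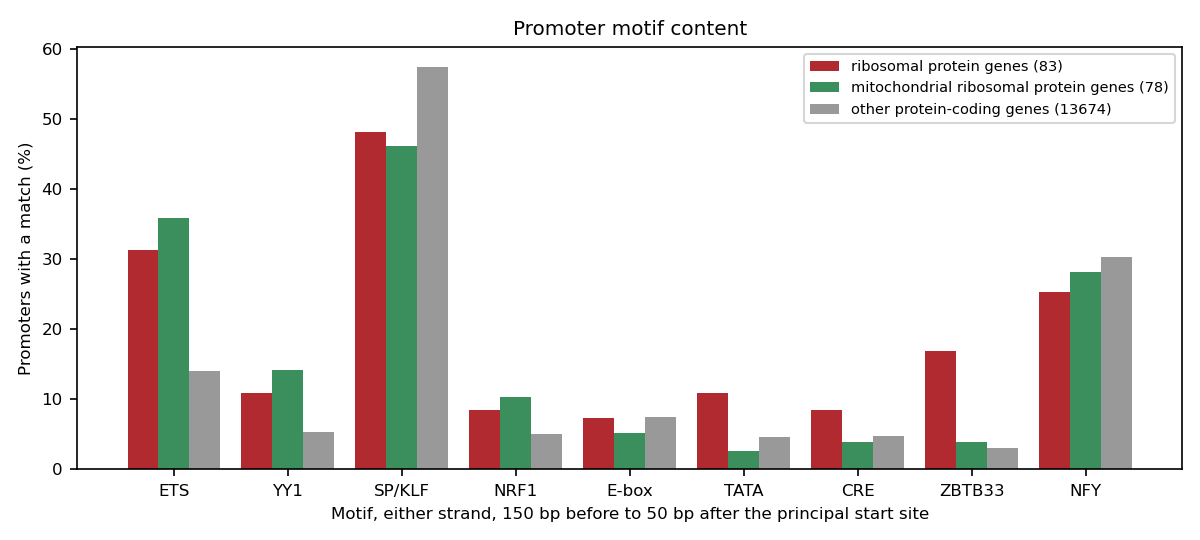
Share of promoters (vertical axis, %) with a match of each motif from 150 bp before to 50 bp after the principal start on either strand, for 83 ribosomal protein genes, 78 mitochondrial ribosomal protein genes and 13674 other accessible protein-coding genes. The ZBTB33 letters are at 16.9%, 3.85% and 2.98%, while the ETS letters are at 31.3%, 35.9% and 14.1%.

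Some ribosomal protein promoters are shared or host other genes. In 13 of the accessible genes another protein-coding gene started on the opposite strand within 1 kb upstream, for example Ndufa7 at 10 bp from Rps28, Trappc4 at 33 bp from Rps25, Rab13 at 44 bp from Rps27, Lias at 53 bp from Rpl9, Sphk2 at 69 bp from Rpl18 and Med22 at 87 bp from Rpl7a. Their median signal was 5.59, against 4.39 for the other 70, with quartiles of 2.71 to 5.83 and 3.06 to 5.71 that overlapped. The share of such pairs among other protein-coding genes was not calculated, so the count of 13 has no background beside it. Ribosomal protein genes are also known hosts of small nucleolar RNAs, which guide the modification of ribosomal RNA, in their introns. The 30 accessible hosts had a median of 5.03 (quartiles 3.17 to 6.51) and the 53 other accessible genes 4.36 (2.86 to 5.63). The share of hosts among other protein-coding genes was not calculated either. Rpl4 hosted 5 such RNAs and Rpl13a hosted 4, at promoters that range from near the lowest to near the highest signal.

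Away from promoters the ribosomal protein genes had about as many accessible elements as other genes. A distal DHS here is a region found in both libraries, over 1 kb from every annotated start and within 50 kb of a start of the gene. At least 1 was present for 78 of the 86 genes (90.7%), against 80.7% of all protein-coding genes, and the mean per gene was 3.01, against 3.14. The order of these means depended on the settings: it was 2.05 against 1.86 with the stricter peaks and 2.93 against 2.52 with the most 5′ start alone, but 1.22 against 1.42 within 20 kb. The genes with the most were Rps14 with 13 and Rpl14 with 8, followed by Rpl19, Rpl38, Rplp1 and Rps19bp1 with 7 each. None was found for Rpl7, Rpl10, Rpl36, Rpl10l, Rpl22l1, Rpl39l, Rps27 and Rps27a.

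The 259 pairs of gene and element comprised 254 distinct elements. Their median signal was 1.18 (1.11 in replicate 1 and 1.19 in replicate 2), against 0.708 (0.655 and 0.737) over all 52122 distal elements, and 27.2% lay in the highest 10% of these. This median and this share were not calculated over distal elements near other protein-coding genes alone. Whether the higher signal is particular to ribosomal protein genes was therefore not tested. A footprint was present in both libraries in 234 of the 254 (92.1%). The same share over all distal elements, whose median signal was lower, was not calculated, so the value has no background beside it. For 88 (34.6%) the ribosomal protein gene had the nearest protein-coding start, and 7 lay inside the gene itself, so most lay nearer to another gene. Among the highest, an element at chr9:44457441-44457660, with 4.11 and 5.59, was 49430 bp from Rps25 and 2465 bp from Upk2. Another at chr9:106418301-106418560, with 4.58 and 4.88, was 10894 bp from Rpl29, which was its nearest protein-coding gene. Distance does not show which gene an element acts on.

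**Figure D5:**
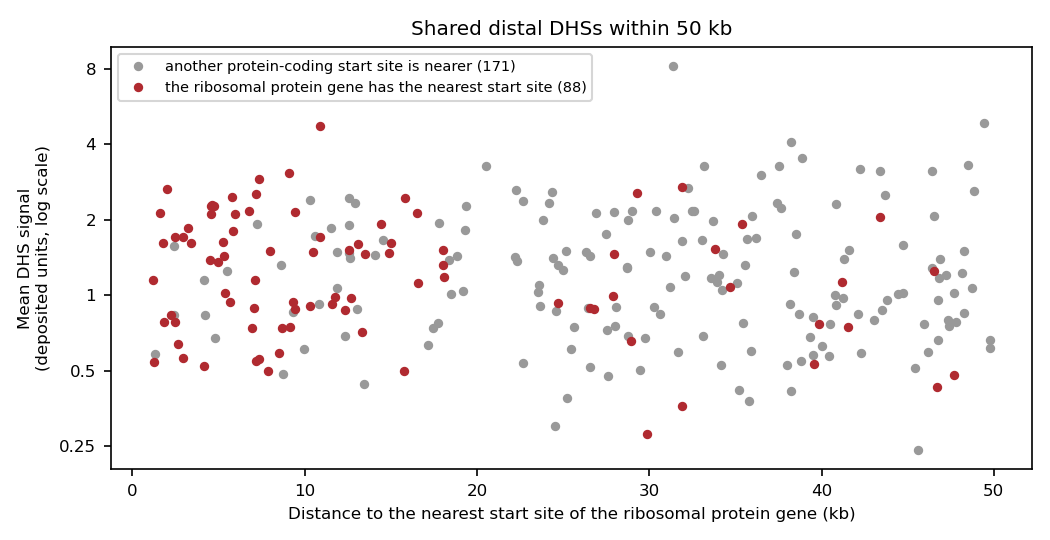
Mean signal of each distal DHS (vertical log axis, deposited units) by its distance (kb) from the nearest start of a ribosomal protein gene, for 259 pairs. Red points mark the 88 pairs in which the ribosomal protein gene has the nearest protein-coding start, and these lie mostly at short distances.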

How the data were processed

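DNase-seq peaks, footprints and cleavage segments of 2 libraries were used as the authors deposited them. Per the labels, the assembly was mm10 and each library was processed by itself. The deposited peak signal has no stated unit. The deposited segments carry a false discovery rate (q-value) of at most 0.05, and every deposited footprint has a p-value of 0.01, which left no ranking. Not given in the sources used here: aligner, callers, versions, read depth and how CAST/EiJ alleles and repeats were handled.

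The larger peak list of each library was used. Genes and starts came from GENCODE M21 (55413 genes) on GRCm38.p6, and overlap meant at least 1 bp. Genes were taken by symbol. Members, gene lists and tests were chosen with earlier results of these data known, and the motifs were shortened after the files were read. Named were the 4 highest and 4 lowest genes per subunit, all stalk genes, paralogs and genes without a DHS, the 3 largest ratios in each direction, the 4 genes with most footprints and with most distal DHSs, and the 3 highest distal DHSs. Some items selected in this way are not reported here. Other genes are named as examples chosen after their values were seen. Interval and motif functions were tested on simulated data. The tools were pandas 2.3.3, NumPy 2.4.6 and Matplotlib 3.10.9 in Python 3.11.15. Alternatives covered peak list, number of peaks, window, start site, overlap and each library alone.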

Additional observations from a re-analysis of the deposited data

How the results depend on the processing

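The count of accessible ribosomal protein promoters (83) ranged from 79, with the most 5′ start only (also without Rpl17, Rps2, Rps10 and Rps14), to 83, and was 83 in each library alone. The median promoter signal (4.39) was 4.07 to 4.87 in single libraries, and the median number of footprints per window (7.5) was 7 to 9. The mean number of distal DHSs (3.01) was 3.24 to 6.08 in single libraries and 5.99 within 100 kb, where all protein-coding genes had 5.86. The share of footprints found in both libraries (62.9%) was 54.5% to 71.3% by library, and 47.1% when 50% of both footprints had to overlap, against 39.9% for all protein-coding promoters. No paired analysis was possible because there is only 1 group. Footprint counts and distal DHSs were higher in replicate 2, which held more peaks, and how far depth limits them was not tested because read totals are unknown.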

Other observations

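Genes that build ribosomes and genes whose products are candidates to act at ribosomal protein promoters were accessible throughout the lists used. Of the assembly and nucleolar genes, 25 of 25 had a promoter DHS in both libraries, with a median signal of 3.71. Nop56, a core protein of box C/D small nucleolar particles, had 8.56 in replicate 1 and 7.57 in replicate 2, and Nat10, an RNA acetyltransferase of the nucleolus, had 8.56 and 7.42. Pes1, of the PeBoW complex that matures the large subunit, had 1.31 and 1.56, and Eif6, which keeps the subunits apart, had 1.57 and 1.32. All 12 candidate regulators were accessible, with a median of 3.16. Sp1 had 8.94 and 9.39, Zbtb7a 7.63 and 7.10, Tbp 6.38 and 4.63 and Yy1 5.32 and 5.05. Gabpa, the DNA-binding subunit of GABP, had 3.28 and 4.03, Myc had 1.89 and 1.70, and Larp1, which binds terminal oligopyrimidine mRNAs, had 1.69 and 1.14. These genes were chosen as examples after their values were seen.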
